A study of Mus musculus with 6 samples.

Results

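The genes examined were 9 transcription factors that set the identity of projection neurons in the developing cortex: *Bcl11b*, *Fezf2*, *Tbr1*, *Satb1*, *Bcl11a*, *Cux1*, *Cux2*, *Pou3f2* and *Pou3f3*. They were taken as a named set, and their clusters were those that overlapped the mm10 RefSeq gene body of a member on its own strand. The members are 9 of the 28097 gene bodies with a known strand. The data come from AGO2 chimeric eCLIP, in which RNA crosslinked to AGO2 is immunoprecipitated (IP), sequenced and compared with a size-matched input, and in which a miRNA and its bound RNA can be ligated into 1 read that names both. The libraries were prepared from whole brains of C57Bl/6J pups at postnatal day 0 (P0). There was 1 WT library and there were 2 *Mov10* Deletion libraries, so the genotypes were not tested against each other. *Mov10* Deletion mice carry floxed exons 6 and 7 of *Mov10*, an RNA helicase gene, with a Cre driven by *Emx1*, and were bred with mice heterozygous for a *Mov10* mutation. That Cre is active in excitatory neurons of neocortex and hippocampus, whereas the libraries hold RNA of all cells of the brain.

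Cortical projection neurons are born in sequence, deep layers first, and each layer relies on its own transcription factors. *Bcl11b* (CTIP2) and *Fezf2* specify neurons that project below the cortex, *Tbr1* marks neurons that project to the thalamus, and *Cux1*, *Cux2*, *Pou3f2* (BRN2) and *Pou3f3* (BRN1) act in the upper layers. *Bcl11a* (CTIP1) and *Satb1* are chromatin-binding factors of both projection neurons and interneurons. AGO2 holds a miRNA, which pairs through its seed, nucleotides 2 to 8, mostly with 3’UTRs of mRNAs and lowers their translation and stability. miR-124 is the typical miRNA of neurons, and both arms of the miR-9 hairpin are made in neural progenitors and young neurons.

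The WT library held 359172 AGO2 clusters, and the *Mov10* Deletion libraries held 616014 (replicate 1) and 616005 (replicate 2), with total read numbers not given. Nearly all clusters of the *Mov10* Deletion libraries share coordinates (614927 clusters), so their positions are not independent. Among cell type markers, 4 of 4 neuronal genes with a known strand held AGO2 clusters in every library, whereas 1 of 2 genes of tissues other than brain (*Alb*, with 1 cluster in WT and 3 in each *Mov10* Deletion library) held any. Genes of blood (3 of 3), astrocytes (3 of 3) and endothelium (2 of 2) held clusters in every library too. Oligodendrocyte lineage genes held them in 2 of 2 cases in WT and 1 of 2 in each *Mov10* Deletion library. For microglia this was 1 of 3 in WT and 2 of 3 in each *Mov10* Deletion library. Over protein-coding genes with a known strand, 10504 of 17492 held a cluster in WT and 11075 in each *Mov10* Deletion library. *Mov10* itself held 11 AGO2 clusters in WT and 9 in each *Mov10* Deletion library. In whole brain, fewer cells of a type and less RNA per cell cannot be told apart.

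The gene bodies lie, in mm10, at chr12:107910403-108004145 for *Bcl11b*, chr14:12338992-12346803 for *Fezf2*, chr2:61802863-61814114 for *Tbr1*, chr17:51736187-51833290 for *Satb1* and chr11:24076564-24173558 for *Bcl11a*. Those of the upper-layer genes lie at chr5:136248135-136567590 for *Cux1*, chr5:121857962-122050415 for *Cux2*, chr4:22482095-22488366 for *Pou3f2* and chr1:42695768-42700210 for *Pou3f3*. *Tbr1*, *Bcl11a* and *Pou3f3* are on the plus strand and the other members on the minus strand. Lengths ranged from 4443 nt for *Pou3f3* to 319456 nt for *Cux1*. Positions within a gene are given as the distance of a cluster from the 3’ end of its gene body. No member held an AGO2 cluster on its other strand. On the same strand, *Mir721* overlaps *Cux1* and *Gm46091* overlaps *Pou3f3*. Clusters where they overlap were counted for the member but cannot be assigned to it alone.

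The miRNAs shown are those of sites that recurred between libraries or of seed matches described further on, where RefSeq gave their mature form. Seeds are in capitals, since the matches searched were to these nucleotides. Some of these sites held no seed match, and intronic sites were not searched.
mmu-miR-9-3p: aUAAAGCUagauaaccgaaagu
mmu-miR-9-5p: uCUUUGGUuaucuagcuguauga
mmu-miR-125b-5p: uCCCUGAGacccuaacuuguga
mmu-let-7a-5p: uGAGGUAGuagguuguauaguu
mmu-let-7c-5p: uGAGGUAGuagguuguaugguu
mmu-miR-181a-5p: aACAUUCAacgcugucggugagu
mmu-miR-181d-5p: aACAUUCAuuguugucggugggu
The let-7 members share 1 seed and the miR-181 members share another, whereas the arms of the miR-9 hairpin differ. miR-124-3p, miR-466i-5p, miR-466f-3p and miR-466h-3p were also assigned to members in more than 1 library and are given by name.

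All 9 members held AGO2 clusters in every library. Of 17492 protein-coding genes with a known strand, 10504 held one in WT and 11075 in each *Mov10* Deletion library. The members' clusters numbered 579 in WT, and 1021 and 1022 in replicates 1 and 2 of *Mov10* Deletion. A cluster was called enriched when both its log2 IP over input and its −log10 p were at least 3. Of the members' clusters, 23 (3.97%, exact 95% interval 2.53% to 5.90%) were enriched in WT, 86 (8.42%, 6.79% to 10.3%) in replicate 1 and 72 (7.05%, 5.55% to 8.79%) in replicate 2. Over all clusters of the libraries, 2.11%, 5.18% and 3.10% were enriched. Intervals cover counting error only, and neighbouring clusters can hold the same reads. *Bcl11b* held 17 of the 23 enriched clusters in WT, 39 of 86 in replicate 1 and 33 of 72 in replicate 2. Without it, the shares of the other 8 genes were 1.14%, 5.25% and 4.35%, below the share of all clusters in WT, near it in replicate 1 and above it in replicate 2.

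At least 1 enriched cluster was found in 5 of 9 members in WT, where this held for 20.1% of protein-coding genes with a cluster. It was found in 7 of 9 in each *Mov10* Deletion library, against 45.2% in replicate 1 and 35.2% in replicate 2, and the same 7 genes had one in both, against 26.4% of protein-coding genes. Long genes hold more clusters, and members as long as *Cux1* hold far more than the median gene, which had 9 clusters in WT and 13 in each *Mov10* Deletion library. An enriched cluster rested on at least 18 IP reads in WT, but on as few as 9 in replicate 1 and 8 in replicate 2, where IP and input reads were inferred from the deposited ratio and p-value. The medians were 45, 17 and 12 IP reads against 3, 2 and 2 input reads. The inference allows no fewer than 1 input read, so 1 read cannot be told from an empty input. By the same inference, 1 IP read against 1 input read stood for a fold of 0.845 in WT, 1.74 in replicate 1 and 2.39 in replicate 2. Equal read numbers thus gave the lowest log2 in WT. The part of these differences in the counts of the genotypes was not tested.

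**Figure D1:**
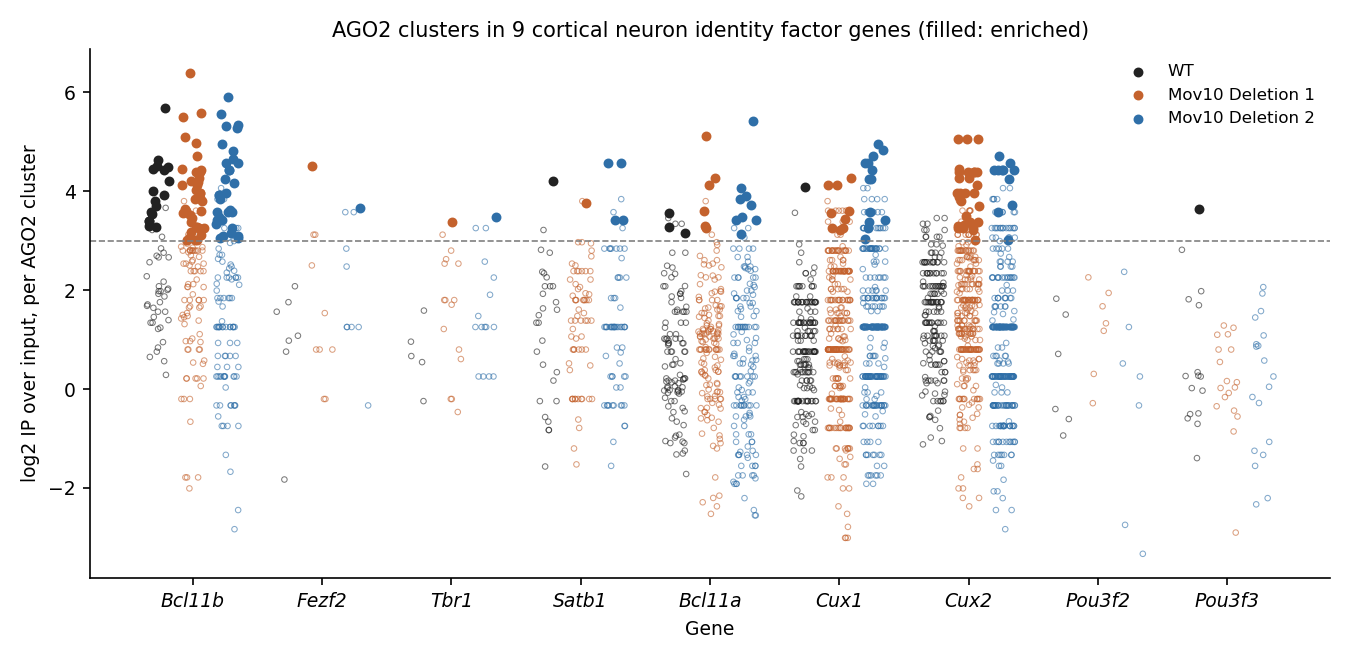
Log2 IP over input of every AGO2 cluster (points) in the 9 genes, by gene and library, with enriched clusters filled and the threshold of 3 dashed. *Bcl11b* holds most of the enriched clusters in WT (17 of 23), while *Pou3f2* has none in any library.

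**Figure D2:**
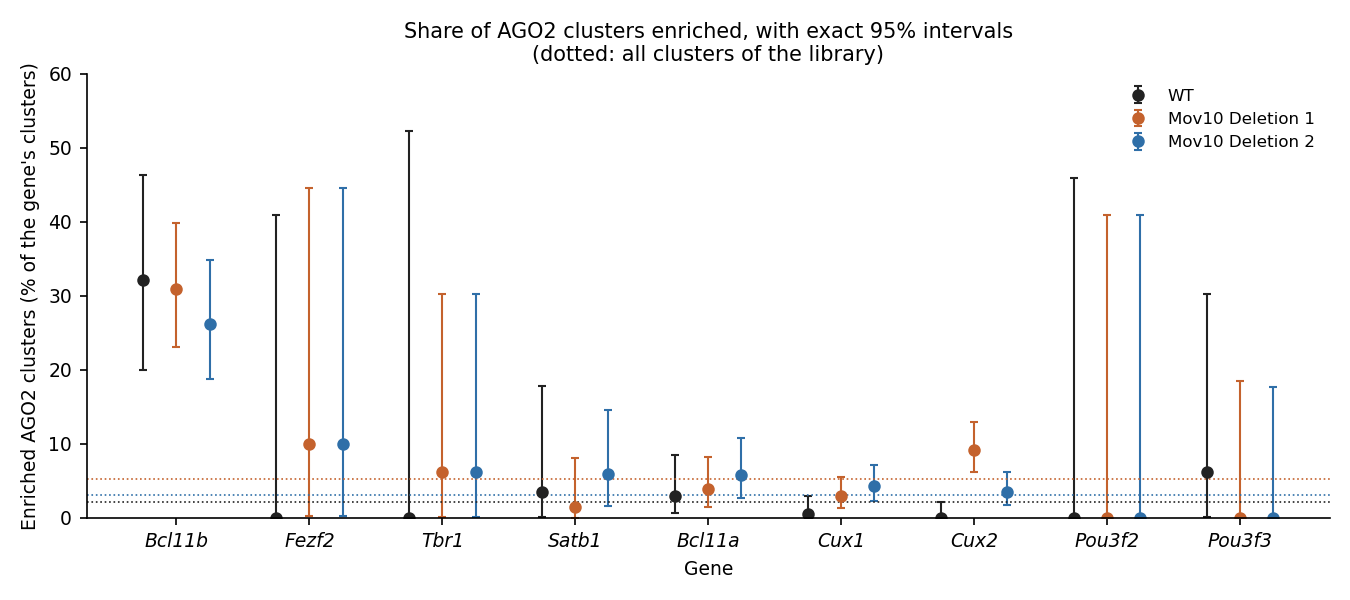
Share of each gene's AGO2 clusters that were enriched (percent, points) with exact 95% intervals (bars), by library. Dotted lines give the share over all clusters of each library. The *Bcl11b* intervals, from 18.8% upward in the lowest library, lie above those lines.

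*Bcl11b*, a zinc finger gene needed for corticospinal neurons, had 32.1% of its 53 clusters enriched in WT (interval 19.9% to 46.3%), 31.0% of 126 in replicate 1 (23% to 39.8%) and 26.2% of 126 in replicate 2 (18.8% to 34.8%). Ranked by their number of enriched clusters among protein-coding genes, it stood at place 20 in WT, 31 in replicate 1 and 14 in replicate 2. Touching clusters counted as 1 region, these were 11, 28 and 25 regions. The gene was divided for description after the values were seen, with the 3’UTR and an intronic stretch 24000 to 32000 nt from the 3’ end as parts of their own. The 3’UTR held 3 enriched of 5 clusters in WT, 5 of 9 in replicate 1 and 6 of 9 in replicate 2. The intronic stretch held 10 of 14, 17 of 22 and 11 of 22. From 5000 to 10000 nt, which includes the last coding exon, 3 of 5, 1 of 4 and 0 of 4 were enriched. In the intron from 10000 to 24000 nt, 0 of 1, 5 of 16 and 2 of 16 were enriched, and from 32000 to 45000 nt, 1 of 8, 7 of 25 and 5 of 25. Beyond 45000 nt, 0 of 20, 4 of 50 and 9 of 50 were enriched, and the highest WT log2 there, 3.66, had a −log10 p under the threshold. By count, the intronic stretch, whose bounds followed the values, thus held the most enriched clusters in each library. By share, the 3’UTR was higher in replicate 2 (6 of 9 against 11 of 22).

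The clusters of *Bcl11b* with the highest −log10 p lay in the 3’UTR. The WT cluster at chr12:107913737-107913953, 3334 nt from the 3’ end, had a log2 IP over input of 4.64, with a −log10 p at 400, the highest value the files give. Over the same place, the cluster at chr12:107913816-107913954 had 5.57 in replicate 1 and 5.55 in replicate 2, both also at 400. All 3 libraries were thus high here. A miR-124-3p target cluster lay on it in each library, with a deposited score of 88.9 in WT, 79.3 in replicate 1 and 20.9 in replicate 2. The scores ranked 108 of 22074 assignments in WT, 66 of 30526 in replicate 1 and 206 of 13468 in replicate 2. The score is the authors' and its scale is not explained, so it is used only to order target clusters within a library. miR-181a-5p was assigned to the same stretch in WT (score 5.95) and replicate 1 (9.86), and not in replicate 2. No 7-nt or 6-nt match to its seed was found within those clusters.

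The highest log2 of *Bcl11b* lay elsewhere and rested on 1 inferred input read in each library, the lowest number the inference allows. In WT it was 5.69, from 61 IP reads against 1 input read, at chr12:107916892-107916970 in the last coding exon (interval 3.15 to 11). No *Mov10* Deletion cluster overlapped this one. It was 6.38 in replicate 1, from 48 reads against 1, at chr12:107939273-107939376 (3.84 to 11.7), where replicate 2 had 3.92. In replicate 2 it was 5.90, from 25 reads against 1, at chr12:107939129-107939235 (3.29 to 11.3), where replicate 1 had 4.03. Both of these are in the intronic stretch and WT had no cluster on them. Among the other clusters enriched in both *Mov10* Deletion libraries, the one at chr12:107935332-107935411 had 4.44 from 25 reads against 2 in replicate 1 and 5.34 from 17 against 1 in replicate 2, and 3 more of the highest lay in the 3’UTR stretch named above. About 6577 nt from the 3’ end, in coding sequence, miR-124-3p was assigned again in all libraries, with scores of 14.3, 3.11 and 7.48. The AGO2 cluster there had log2 values of 3.28 in WT, 3.27 in replicate 1 and 2.25 in replicate 2, enriched in the first 2 of these.

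Within the intronic stretch, the largest inferred number of IP reads was at chr12:107938352-107938646 in WT, with a log2 of 3.80 from 347 IP reads against 21 input reads. The clusters of the other libraries over it reached 2.94 and 2.71 and were not enriched. Next to it, chr12:107938883-107939075 had 4.46 in WT (312 reads against 12), and the overlapping cluster had 3.55 in replicate 1 (202 against 30) and 3.05 in replicate 2 (90 against 26), enriched in all libraries. The target clusters here named miR-466f-3p (scores of 11.7 in WT and 7.54 in replicate 1) and miR-466h-3p (7.20 and 6.87), and replicate 2 had none. Replicate 1 also named miR-466i-5p (9.71), miR-9-5p (3.33) and miR-124-3p (3.06) within the stretch, each at a place with no such assignment in the other libraries. miR-124-3p thus led in the 3’UTR, and miRNAs of the miR-466 name in the intron.

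**Figure D3:**
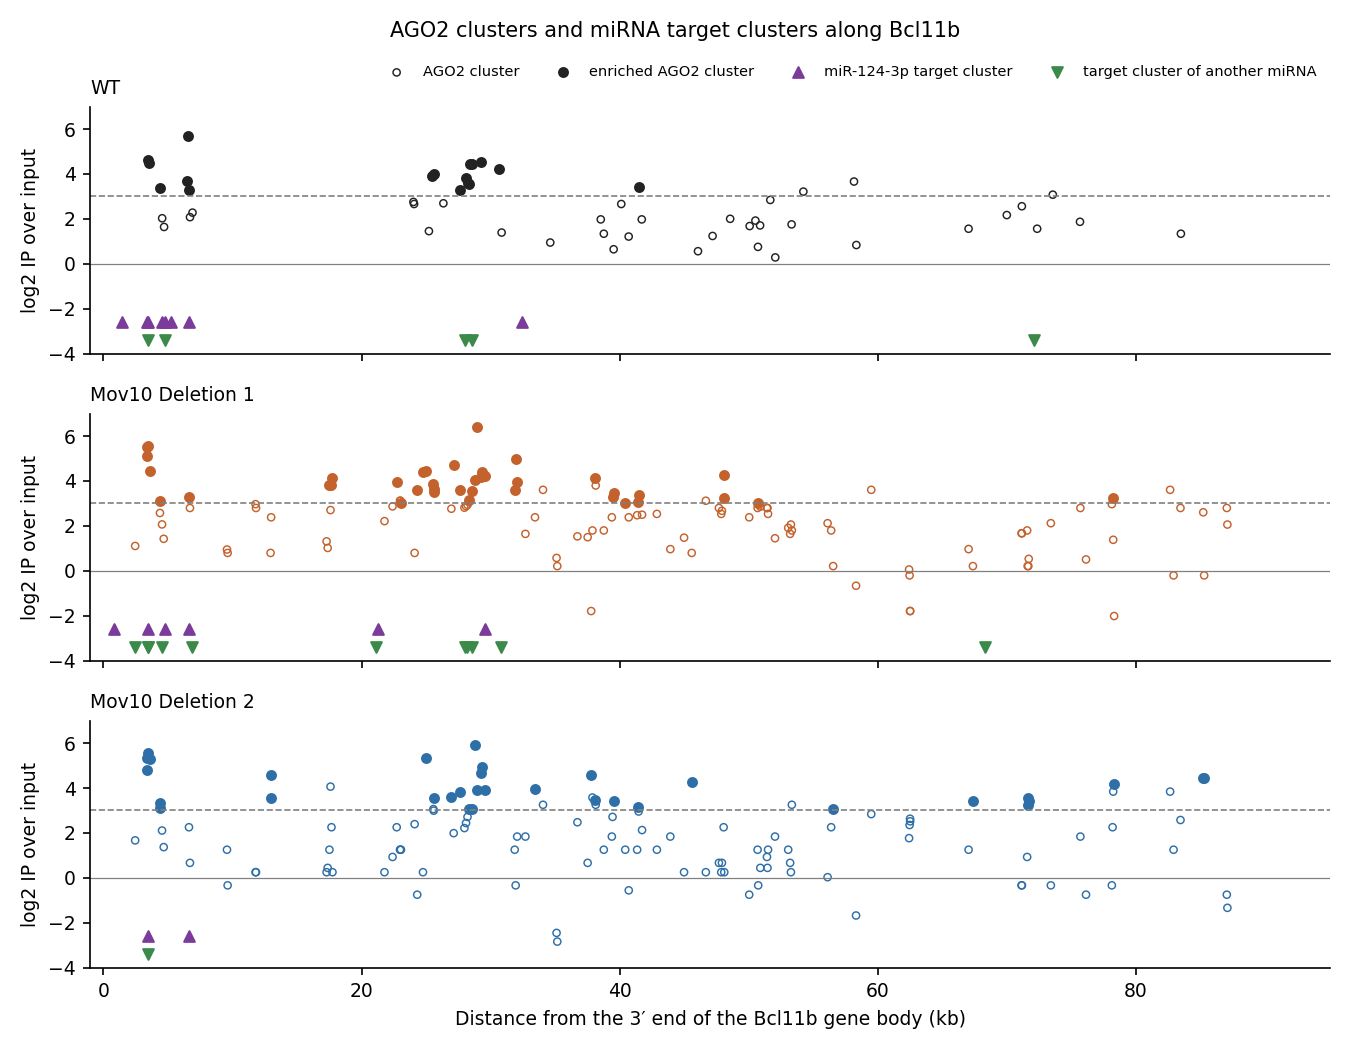
AGO2 clusters along *Bcl11b* (points, log2 IP over input against distance from the 3’ end of the gene body in kb; enriched clusters filled) in the 3 libraries, with miR-124-3p target clusters (upward triangles) and those of other miRNAs (downward triangles) below. The stretch 24000 to 32000 nt from the 3’ end, bounded after the values were seen, holds the most enriched clusters by count (10, 17 and 11). Beyond 45000 nt, 0 of 20 clusters in WT, 4 of 50 in replicate 1 and 9 of 50 in replicate 2 are enriched. The highest WT log2 there is 3.66, with a −log10 p under the threshold. Over all clusters of the libraries, 2.11%, 5.18% and 3.10% are enriched.

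*Fezf2*, which instructs the subcortical fate upstream of *Bcl11b*, held few clusters, 7 in WT and 10 in each *Mov10* Deletion library. None was enriched in WT, which allows a share of up to 41.0%. The single enriched cluster of replicate 1 (log2 4.50, 13 IP reads against 1) and that of replicate 2 (3.67, 16 against 3) lay in different parts of the coding sequence. At the place enriched in replicate 1, replicate 2 had 1.25 from 1 read against 1. At the place enriched in replicate 2, replicate 1 had -0.20 from 1 read against 2. A miRNA was assigned in replicate 2 alone, miR-125b-5p in the 3’UTR with a score of 3.11.

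*Tbr1*, a T-box factor of layer 6, had 5 clusters in WT and 16 in each *Mov10* Deletion library. No WT cluster was enriched, and 1 was in each of the others, both in the 3’UTR but at different places (log2 3.38 in replicate 1 at 1462 nt from the 3’ end, 3.48 in replicate 2 at 1094 nt). A miR-124-3p target cluster lay 581 nt from the 3’ end in WT (score 14.3) and 603 nt in replicate 1 (13.2), and replicate 2 had no target cluster in this gene. The AGO2 cluster over that site had log2 values of 1.59 in WT, 2.63 in replicate 1 and 1.48 in replicate 2. All were below 3, although 64 IP reads lay there in WT. In WT this target cluster named miR-9-5p as well (score 8), and it holds a 6-nt match to the miR-9-5p seed, in capitals, at chr2:61643787-61643792 of GRCm39.
*Tbr1* 3’UTR, miR-9-5p: gccttatttgtttttccCCAAAGtg

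*Satb1*, a chromatin organizer, was, with *Bcl11b*, 1 of 2 members with an enriched cluster at the same place in all libraries. The WT cluster at chr17:51812450-51812486 had a log2 of 4.22 from 22 IP reads against 1 input read. The overlapping cluster at chr17:51812367-51812495 had 3.75 in replicate 1 (62 against 8) and 3.42 in replicate 2 (9 against 2). It lies 76180 nt from the 3’ end, in 5’UTR exons of GENCODE models. In replicate 1 a miR-124-3p target cluster with a score of 14.1 lay on it, and the other libraries had none there. The 3’UTR of *Satb1* held 2 miR-124-3p sites that recurred in all libraries. At 2818 nt from the 3’ end the scores were 28.9 in WT, 23.9 in replicate 1 and 17.4 in replicate 2, ranks 655 of 22074, 524 of 30526 and 279 of 13468. AGO2 log2 values there were 2.37, 2.68 and 1.65. At 3136 nt the scores were 9.79, 13.2 and 5.48, with AGO2 log2 values of 2.26, 2.5 and 3.42, enriched in replicate 2 alone. The highest enriched log2 of replicate 2 was 4.58, at a pair of touching intronic clusters 49875 and 49891 nt from the 3’ end, each with 10 IP reads against 1. Strong chimeric signal in this 3’UTR thus stood beside AGO2 values mostly under the enrichment threshold.

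*Bcl11a*, the paralogue of *Bcl11b*, had 100 clusters in WT and 155 in each *Mov10* Deletion library, of which 3%, 3.87% and 5.81% were enriched. All of these 3, 6 and 9 clusters were intronic, and none was enriched in both *Mov10* Deletion libraries. The highest log2 was 3.56 in WT (28 IP reads against 2), 5.12 in replicate 1 (20 against 1) and 5.42 in replicate 2 (18 against 1), each at another place. WT and replicate 2 met at 1 intronic place, with 3.15 and 3.28 in a pair of touching WT clusters (chr11:24133420-24133574 and chr11:24133575-24133619), 3.90 in replicate 2 and 2.29 in replicate 1, and a let-7 miRNA was named there in replicates 1 (score 3.85) and 2 (score 3). Its 3’UTR had no enriched cluster in any library. The site seen in all libraries was in the 3’UTR, 6190 nt from the 3’ end, and named miR-125b-5p, with scores of 9.78 in WT, 9.89 in replicate 1 and 4.09 in replicate 2. AGO2 log2 values over it were -0.06, 0.08 and -1.39, so the IP was close to the input or below it there. No match to nucleotides 2 to 7 of miR-125b-5p was found in these clusters. Replicate 1 named miR-125b-5p also in the 5’UTR (score 5), where a 7-nt match lies at chr11:24028102-24028108 of GRCm39. Target assignments in *Bcl11a* numbered 7 in WT, 22 in replicate 1 and 4 in replicate 2, where the highest score was 6 for miR-23b-3p in the 3’UTR.

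*Cux1* is a homeobox gene whose transcripts end at 2 regions, since the homeobox form stops inside the gene body of a longer splice form. Its 187 clusters in WT held 1 enriched cluster (0.535%), and its 306 clusters in each *Mov10* Deletion library held 9 (2.94%) and 13 (4.25%). In WT the enriched cluster was in the 3’UTR of the homeobox form, chr5:136268616-136268706, with a log2 of 4.08 from 20 IP reads against 1, where the others had 2.54 and 1.84. That 3’UTR also held 5 of the 9 and 4 of the 13. At 2 of its places both *Mov10* Deletion libraries were enriched. At chr5:136268943-136269134 the log2 was 3.55 in replicate 1 and 3.37 in replicate 2, with 2.22 in the overlapping WT cluster. At chr5:136272866-136272998 it was 3.61 and 4.25, with 1.24 in WT, and the 4.25 rests on 8 IP reads against 1. Outside the 3’UTR, the highest values were 4.26 in replicate 1 (intron, 11 reads against 1) and 4.95 in replicate 2 (5’UTR, 13 against 1). miR-124-3p was assigned at the first place in WT (score 13.8) and replicate 1 (9), and 23469 nt from the 3’ end with 8.32 and 13.9. Replicate 2 named no miRNA in this 3’UTR. miR-9-3p was assigned in replicate 1 to 2 target clusters of the 3’UTR, with scores of 6.92 and 3, each with a 7-nt seed match. On the first of these the AGO2 log2 was 2.08 in WT, 2.38 in replicate 1 and 4.84 in replicate 2, enriched in replicate 2 alone, and WT named miR-9-5p there (4.73).
*Cux1* 3’UTR, miR-9-3p, chr5:136298177-136298183 (GRCm39): ggacaaagtgacatttAGCTTTAac
*Cux1* 3’UTR, miR-9-3p, chr5:136302813-136302819 (GRCm39): gtgcacattgatccatAGCTTTAac

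*Cux2*, a homeobox gene of upper-layer neurons, differed most between libraries in the number of enriched clusters, from 0 to 29. None of its 176 WT clusters was enriched, which allows a share of up to 2.07%. In replicate 1, 29 of 316 were enriched (9.18%, interval 6.23% to 12.9%), and in replicate 2, 11 of 316 (3.48%, 1.75% to 6.14%). All of them lay in introns, and no cluster was enriched in both libraries. The reads were few, a median of 12 IP reads in replicate 1 and 9 in replicate 2, and 15 of the 29 and 8 of the 11 had 1 input read. Touching clusters counted as 1 region, they were 22 and 8. The highest values were 5.05 in replicate 1 (19 against 1) and 4.71 in replicate 2 (11 against 1). The median log2 of all its clusters was 1.56 in WT, 1.65 in replicate 1 and 1.25 in replicate 2. Equal medians would not mean equal read ratios, since 1 IP read against 1 input read stood for another fold in each library. The highest value in WT was 3.46, from 13 IP reads against 1, with a −log10 p of 2.56, under the threshold. In replicate 1 the same 13 against 1, in *Fezf2*, gave a log2 of 4.50 and an enriched cluster. Equal reads were thus not called alike, and the part of this in the *Cux2* counts was not tested. An intronic miR-124-3p site 53178 nt from the 3’ end was seen in WT (score 4.94) and replicate 1 (10.6), and a let-7 site at 146293 nt in the same libraries (4 and 3.68). The 3’UTR of *Cux2* had no target cluster in any library.

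*Pou3f2*, a POU-domain factor of upper-layer neurons, had no enriched cluster among 6 in WT, 7 in replicate 1 and 7 in replicate 2, yet held recurring miRNA sites. miR-9-3p was assigned in its 3’UTR in all libraries, 2216 nt from the 3’ end, with scores of 14.9 in WT, 19.8 in replicate 1 and 3 in replicate 2. Among assignments to miR-9-3p the first ranked 10 of 197 in WT and the second 2 of 273 in replicate 1. The target clusters hold a 7-nt match to its seed at chr4:22484369-22484375 of GRCm39.
*Pou3f2* 3’UTR, miR-9-3p: aaaactggttttctgtAGCTTTAaa
miR-124-3p was assigned next to it, with scores of 3, 13.7 and 3.89. AGO2 log2 values over both were at most 1.51 in WT, 1.94 in replicate 1 and 2.37 in replicate 2, on 37, 42 and 26 IP reads, all below 3. miR-466i-5p was assigned 4314 nt from the 3’ end in WT (4.99) and replicate 1 (14.8), where AGO2 log2 values were -0.61, -0.29 and 0.52.

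*Pou3f3*, a close relative of *Pou3f2*, had 16, 18 and 19 clusters, and 1 was enriched, in WT. This cluster in the coding sequence at chr1:42697202-42697298 had a log2 of 3.63 from 44 IP reads against 3, whereas the overlapping clusters had 1.11 in replicate 1 and at most 0.88 in replicate 2. WT was the only high library here. No miRNA was assigned to *Pou3f3* at the same place by the same seed in more than 1 library. The assignments were miR-342-3p in WT (score 3), miR-210-3p in replicate 1 (4) and 4 miRNAs in replicate 2, of which miR-181b-5p had the highest score (7). The GENCODE model of this gene runs 2966 nt beyond the RefSeq end. In the 5000 nt past that end, 3, 10 and 10 further clusters were found, none enriched, and 1 miR-124-3p target cluster in replicate 1 (score 7).

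By part of the gene, 3’UTR clusters were enriched in 4 of 60 cases in WT, 11 of 79 in replicate 1 and 12 of 79 in replicate 2. Intronic clusters were enriched in 14 of 456, 72 of 863 and 56 of 863. The share was thus 6.67%, 13.9% and 15.2% in 3’UTRs, and 3.07%, 8.34% and 6.49% in introns, with intervals that overlap in WT (1.85% to 16.2% against 1.69% to 5.10%), replicate 1 (7.16% to 23.5% against 6.58% to 10.4%) and replicate 2 (8.10% to 25% against 4.94% to 8.34%). Without *Bcl11b* the shares were 1.82%, 8.57% and 8.57% in 3’UTRs, and 0.726%, 5.21% and 3.88% in introns. Parts were mapped for the members only, so no share of AGO2 or target clusters by part is given over all genes. Of the 12 WT-enriched clusters that overlapped an enriched cluster in both *Mov10* Deletion libraries, 11 were in *Bcl11b* and 1 in *Satb1*. This was 52.2% of the members' WT-enriched clusters and 36.0% over all WT-enriched clusters. An enriched cluster in either library lay on 15 of the 23 (65.2%), and on 65.7% over the whole WT library.

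Clusters with the same coordinates enriched in both *Mov10* Deletion libraries numbered 21 of 1017 in the members (2.06%), against 0.710% of all shared clusters. They were in 3 genes, 18 in *Bcl11b*, 2 in *Cux1* and 1 in *Satb1*, and no other member had one. *Bcl11b* held 126 clusters in each of these libraries. The pooled share thus rests mostly on this gene and does not describe the other members. Of the 18 in *Bcl11b*, 5 were in the 3’UTR and 13 in introns. An enriched WT cluster lay on 12 of these, a cluster that was not enriched on 1 and no WT cluster on 5. For *Cux1*, WT had clusters at both places and neither was enriched.

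Target clusters numbered 45 in WT (50 assignments to a miRNA), 65 in replicate 1 (70) and 22 in replicate 2 (24). At least 1 was found in 8 of 9 members in each library, where 46.2%, 52.3% and 37.0% of protein-coding genes with an AGO2 cluster had one. Those without were *Fezf2* in WT and replicate 1 and *Tbr1* in replicate 2. 3’UTRs held 22 of the 45, 22 of the 65 and 11 of the 22, and introns 16, 33 and 7. An enriched AGO2 cluster lay on 6 target clusters in WT (13.3%), 6 in replicate 1 (9.23%) and 3 in replicate 2 (13.6%). Over all target clusters of the libraries this was 15.0%, 11.7% and 12%. No AGO2 cluster of the same library lay on 17 (37.8%), 29 (44.6%) and 6 (27.3%) of them, where this held for 31.2%, 49.8% and 46.4% of all target clusters.

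Joining overlapping assignments of the same seed across libraries gave 7 sites seen in all 3 libraries, 16 in 2 and 88 in 1. At each of the 7, the target clusters of the *Mov10* Deletion libraries had the same coordinates. These libraries therefore do not place a site independently of each other. Of the 7, 6 were in 3’UTRs and 1 in coding sequence, and none was intronic. They were in *Bcl11b* (2), *Satb1* (2), *Pou3f2* (2) and *Bcl11a* (1), and 5 of them named miR-124-3p. Of the 16, 6 were in 3’UTRs and 9 in introns, and of the 88, 31 and 40. Parts of genes were mapped for the members only, so the same split over all target sites is not known. Whether it is particular to these genes was not tested. Of the WT assignments, 46.0% had the same seed at the same place in replicate 1 and 18% in replicate 2, against 38.5% and 22.7% of all WT assignments.

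**Figure D4:**
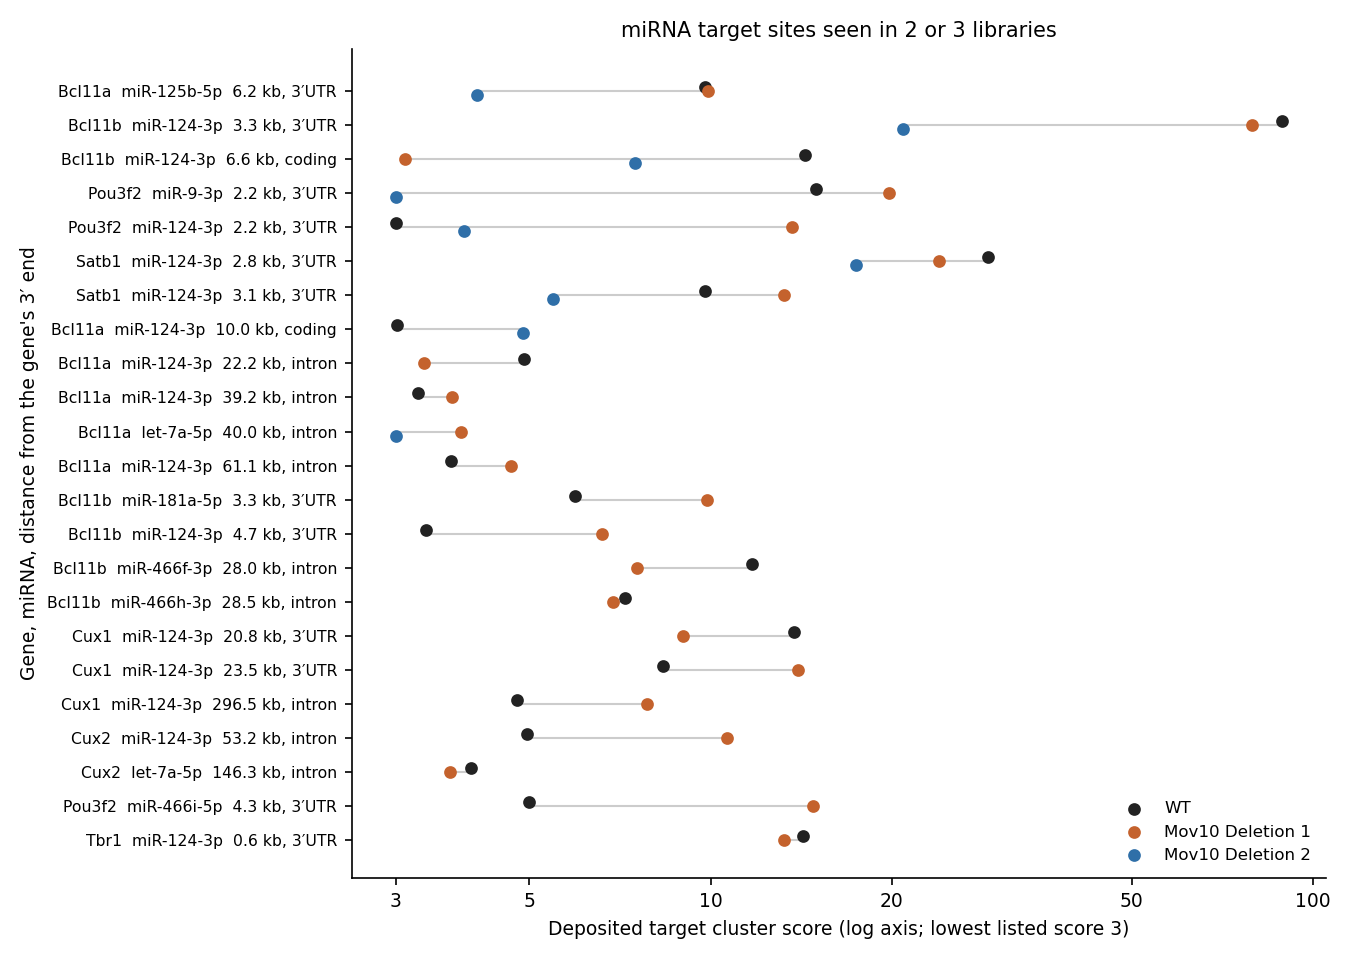
Deposited score (log axis) of each miRNA target site found in 2 or 3 libraries, with the gene, the miRNA and the distance from the 3’ end of the gene body. The 7 sites of all libraries are at the top, and the *Bcl11b* miR-124-3p site has the highest scores (88.9, 79.3 and 20.9).

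Assignments to the members named 39 miRNAs. Grouped by shared seed where RefSeq gave the sequence (33 of 39 names) and by name otherwise, these were 33 groups, of which 6 were seen in all libraries, 6 in 2 and 21 in 1. miR-124-3p led in each library, with 27 of 50 assignments in WT (54.0%, interval 39.3% to 68.2%), 26 of 70 in replicate 1 (37.1%, 25.9% to 49.5%) and 10 of 24 in replicate 2 (41.7%, 22% to 63.4%). Over all target clusters its share was 42.2%, 34.8% and 36.8%, within each interval. It was assigned to 8 of the 9 members in at least 1 library, all but *Fezf2*. miR-466i-5p followed with 10%, 10% and 12.5%, where the libraries had 4.14%, 5.48% and 5.90%.

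let-7 made up 4%, 5.71% and 4.17% of the members' assignments and 9.58%, 9.80% and 8.75% of all. miR-125b-5p made up 4%, 4.29% and 12.5%, against 6.47%, 6.14% and 5.94%. miR-9-5p made up 6.00% in WT and 2.86% in replicate 1 and was not assigned in replicate 2, where a count of 0 of 24 leaves room for its share over all clusters, 6.86%. miR-9-3p made up 2.00%, 4.29% and 4.17%, with about 0.9% of all (0.892%, 0.894% and 0.884%). All of these library values lay within the intervals of the members. Of 85 exonic assignments over the libraries, 38 named a miRNA whose sequence was given. The others, which include all of miR-124-3p, were not searched for a seed match. Among the 38, a 7-nt seed match lay in 11, a 6-nt match in 3 and neither in 24. A place is counted for each library that named it, as in *Pou3f2* for miR-9-3p.

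**Figure D5:**
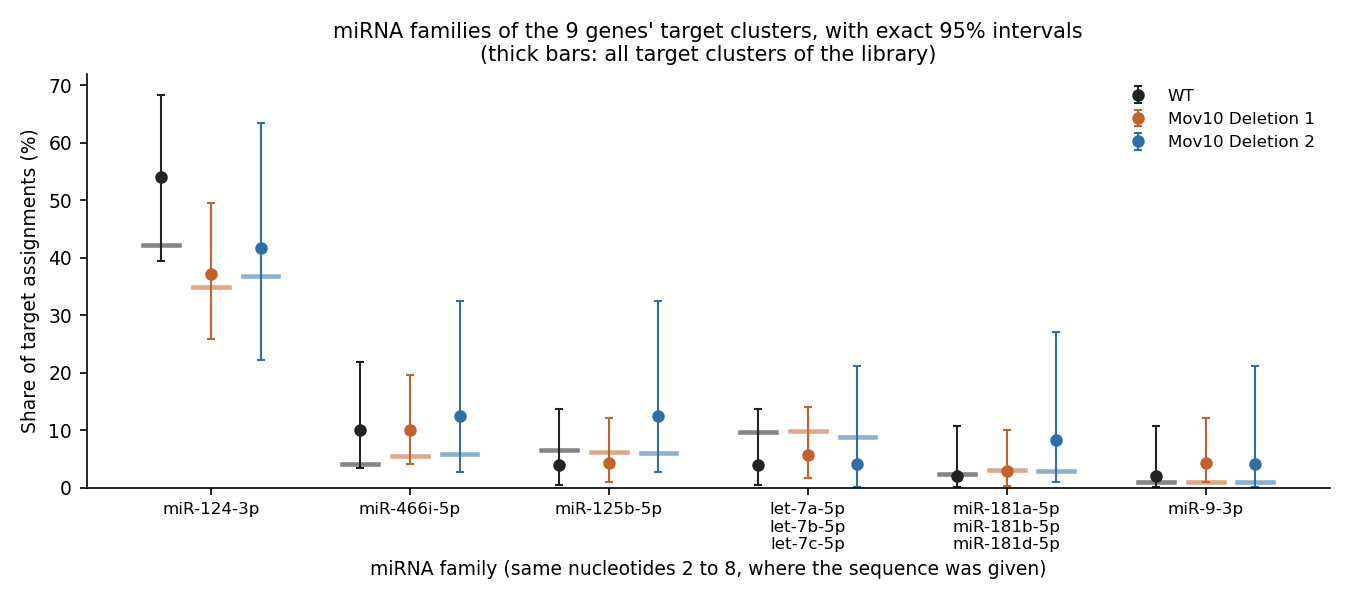
Share of target assignments (percent) of the 6 miRNA groups seen in all libraries, for the 9 genes (points with exact 95% intervals) and for all target clusters of the library (thick bars). miR-124-3p leads in each library at 54.0%, 37.1% and 41.7%, and every interval of the members includes the library value.

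Related genes were counted in the same way. Of 15 other projection neuron transcription factors with a known strand (of 21 listed), an enriched cluster was found in 6 in WT, 12 in replicate 1 and 10 in replicate 2, and a target cluster in 15, 14 and 9. *Sox5*, a factor of deep-layer neurons, held 37 of their 48 enriched clusters in WT. Of 9 cortical progenitor factors (of 12 listed), 0, 5 and 1 held an enriched cluster and 2, 1 and 2 a target cluster. Of 8 interneuron factors (of 14), 1, 3 and 3 had an enriched and 3, 4 and 2 a target cluster. Of 6 Cajal-Retzius and subplate genes (of 9), these were 2, 4 and 3 and then 4, 3 and 3. Over protein-coding genes with a cluster, 20.1%, 45.2% and 35.2% had an enriched cluster, and 46.2%, 52.3% and 37.0% a target cluster. The lists also count genes that held no cluster. Gene lengths differ between the lists, and no list was tested.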

How the data were processed

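Whole brains of P0 pups were used, and 1 WT and 2 *Mov10* Deletion AGO2 IP libraries were analysed. Each has a list of AGO2 clusters and a list of miRNA target clusters in mm10. The input libraries entered only through the IP over input values. The authors used UMI-tools 1.1.1 for molecular identifiers and PCR duplicates, trimmed with cutadapt 3.2, set aside reads on repeats, mapped with STAR 2.7.7a and called clusters with CLIPper. For each AGO2 cluster the authors deposited a log2 fold of IP against input with its −log10 p. For chimeric reads they matched miRNAs with Bowtie 1.2.3, mapped the remainder and called target clusters, deposited with a miRNA and a score of at least 3, whose scale is not given in the sources used here.

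The 9 members, the gene lists and the thresholds were chosen with earlier results of these data known. Clusters were assigned to RefSeq gene bodies (GRCm38.p6) by an overlap of at least 1 nt on the same strand. Strands came from RefSeq promoter and miRNA tables, which cover 28097 of 49997 genes. Exons were those of GENCODE vM39 (GRCm39), which the members share with mm10 by distance: the spacing to all 7 to 11 neighbouring and own promoters tried was the same in both builds (for *Fezf2*, in the turned direction). Cluster coordinates are mm10 and site coordinates GRCm39, and none were converted. A cluster was placed in the part of the gene holding most of its bases, in the order coding, 3’UTR, 5’UTR, noncoding exon, intron.

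IP and input reads were inferred as the smallest whole numbers (1 to 60 input reads) that give the deposited ratio and −log10 p. Simulated data used the p-value formula of the inference, so they checked its arithmetic and not how the authors computed theirs. In the deposited data, such numbers were found for 22 of the 23 enriched member clusters in WT, 83 of 86 in replicate 1 and 71 of 72 in replicate 2. Total depth is unknown. Shares have exact Clopper-Pearson 95% intervals, and where none was enriched, their upper bound gives the limit. Motifs searched were the reverse complements of nucleotides 2 to 8 (7-nt) and, failing these, 2 to 7 (6-nt) of the assigned miRNA, on the sense strand of the spliced transcripts. No test was run. The text names all 9 members, for each the enriched cluster of highest log2 per library, clusters enriched in both *Mov10* Deletion libraries (at most 5), the target clusters of highest score, and miRNAs seen in at least 2 libraries. The stretches of *Bcl11b* and further clusters it describes were picked after their values were seen. Alternatives were the thresholds, overlap, cluster width, read minimum and score. Python 3.11.15, SciPy 1.17.1 and pandas 2.3.3 were used.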

Additional observations from a re-analysis of the deposited data

How the results depend on the processing

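With −log10 p of at least 5, the *Mov10* Deletion libraries had 45 and 34 enriched clusters, and 3 members had one in WT. With a log2 of at least 2 they numbered 36 in WT and 139 in replicate 1, and 37 were enriched in both *Mov10* Deletion libraries. At least 16 inferred IP reads left 49 and 25 in the *Mov10* Deletion libraries. Leaving out either *Mov10* Deletion replicate gave 7 members, the value for both. Without *Bcl11b* there were 6, 47 and 39 enriched clusters, and touching clusters counted as 1 region gave 16, 67 and 54; both counts, and that in annotated 3’UTRs, were chosen after seeing the data. Near the 3’ end, taken as the last 3000 nt, 1 cluster was enriched in each library. In the last 1000 nt it was 0 in each, in the last 5000 nt 4, 6 and 8, and in annotated 3’UTRs 4, 11 and 12.

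A score of at least 5 left 20, 26 and 7 target clusters. The share of miR-124-3p in replicate 1 was then 51.9% and that of miR-181 in replicate 2 28.6%, while miR-106b/20a in WT and replicate 1, let-7 in WT and replicate 2, miR-125b-5p, miR-9-3p, miR-466i-5p and miR-3473b in replicate 2, miR-9-5p in replicate 1 and miR-30 in both *Mov10* Deletion libraries fell to 0. With target clusters listed under 1 miRNA only, miR-106b/20a, let-7, miR-9-3p and miR-3473b in WT, miR-181 in replicate 1 and miR-30 in replicate 2 were at 0. Of 186 alternative values, 144 stayed within 1.5 times the main count or within its interval (for the highest log2 per gene, within the wide interval of its reads). With −log10 p of at least 5, that highest log2 went from 4.22 to 2.37 for *Satb1* in WT and from 4.58 to 3.42 in replicate 2, from 4.26 to 3.61 for *Cux1* in replicate 1 and from 4.71 to 3.02 for *Cux2* in replicate 2, and no cluster was left for *Tbr1*, *Cux1* and *Pou3f2* in WT and *Fezf2* in replicate 1. For *Fezf2* in WT and *Pou3f3* in both *Mov10* Deletion libraries no cluster above input reached a −log10 p of 3, so no highest value was given. No cause was tested. Total depth is not known, and with 1 WT library no difference between genotypes was tested. No paired analysis was possible because no result comes from a test.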
